A study of Mus musculus with 6 samples.

Results

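This account describes 4 mouse miRNA hairpins that need Dicer but not the usual Drosha step: miR-320, miR-484, miR-1839 and miR-664. The members were every row of the count tables with one of these names, both arms included. There were 7 such rows among 109108 features and among 2035 miRNA rows. Small RNA was sequenced from total RNA of the hippocampus. The mice were males of the C57BL/6 background, 3 months old, with Dicer1 flox/flox alleles in both groups, and tissue was taken 3 weeks after tamoxifen. In the Dicer1-ifKO group they also carried CaMKIIa-creERT2, a tamoxifen-activated Cre recombinase driven by a promoter of excitatory forebrain neurons. The WT group had floxed alleles and tamoxifen but no Cre transgene. Each group had 3 libraries made from pools of 3 mice, so p-values measure the spread between pools. Other cells of the hippocampus keep Dicer1 in this model, and in such tissue RNA fewer cells of a type and less RNA per cell cannot be told apart.

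Most miRNAs are cut out of a long primary transcript by Drosha and its partner Dgcr8 in the nucleus, and Dicer then removes the loop of the exported hairpin. Some hairpins skip the first cut. The precursors of miR-320 and miR-484 are known as products of transcription that starts at the hairpin itself, which leaves a cap on the 5′ end, and they leave the nucleus through Exportin-1 rather than Exportin-5. H/ACA snoRNAs fold into a pair of hairpins and guide the conversion of uridine to pseudouridine. Some scaRNAs do the same in Cajal bodies, and one of the hairpins of such RNAs can be cut by Dicer into a miRNA. Whether these hairpins were cut by Drosha was not measured here.

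The sequences show where each miRNA lies in its precursor. Of the 7 members, 4 matched a mature sequence of RefSeq (GRCm38.p6), written here 5′ to 3′ with the seed, bases 2 to 8, in capitals.
miR-484: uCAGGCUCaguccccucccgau
miR-1839-5p: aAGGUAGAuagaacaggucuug
miR-664-5p: cUGGCUGGggaaaaugacugg
miR-664-3p: uAUUCAUUuacuccccagccua
The 4 seeds differed from each other, and 0 other miRNAs among the 1738 mature entries of that table shared one of them. GC content was 63.6% in miR-484, 57.1% in miR-664-5p and 40.9% in both miR-1839-5p and miR-664-3p.

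The miR-484 hairpin (chr16:14159626-14159692, plus strand) is shown from RefSeq with the counted row in capitals. The row covers bases 5 to 26 of 67, on the 5′ arm, and no row of the other arm was analysed here.
Mir484: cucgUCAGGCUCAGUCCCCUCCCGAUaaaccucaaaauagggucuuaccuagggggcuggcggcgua
In GENCODE M21 this place lies in an intron of Marf1 on the opposite strand, and the nearest annotated protein-coding start is that of Nde1, 3635 bp from the middle of the row. miR-320 lies on chromosome 14, plus strand, with its 5p row at 70443525 to 70443546 and its 3p row at 70443557 to 70443578. The middle of the 5p row is 88 bp from the annotated start of Polr3d, a subunit gene of RNA polymerase III that runs the other way.

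miR-664 lies inside an annotated H/ACA snoRNA, and miR-1839 inside an annotated scaRNA, whose box type the annotation does not give. In the GENCODE M21 transcripts below (GRCm38, plus strand, DNA letters), the rows of the files are in capitals. The first is the H/ACA snoRNA Snora36b (chr1:185242907-185243038), in an intron of Rab3gap2, and the second an RNA annotated as scaRNA (chr7:81529855-81529981), in an exon of the long noncoding RNA 2900076A07Rik.
Snora36b with miR-664: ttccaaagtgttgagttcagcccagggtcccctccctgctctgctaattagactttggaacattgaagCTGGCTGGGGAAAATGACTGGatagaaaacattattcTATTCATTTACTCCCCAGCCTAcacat
scaRNA with miR-1839: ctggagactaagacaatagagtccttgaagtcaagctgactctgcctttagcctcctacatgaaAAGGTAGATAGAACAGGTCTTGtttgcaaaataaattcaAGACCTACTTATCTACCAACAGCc
Both miRNAs take up the 3′ hairpin. In Snora36b miR-664-5p covers bases 69 to 89 and miR-664-3p bases 106 to 127, which leaves 5 bases to the 3′ end. In the scaRNA miR-1839-5p covers bases 65 to 86, and miR-1839-3p runs from base 104 to 1 base before the 3′ end. Both RNAs hold the letters ACA 3 bases before their 3′ end, searched on the transcript strand, where 35 of 42 Snora transcripts of the annotation (83.3%) have them too. In the scaRNA this ACA lies inside the miR-1839-3p row, and in Snora36b it overlaps the last base of miR-664-3p.

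**Figure D1:**
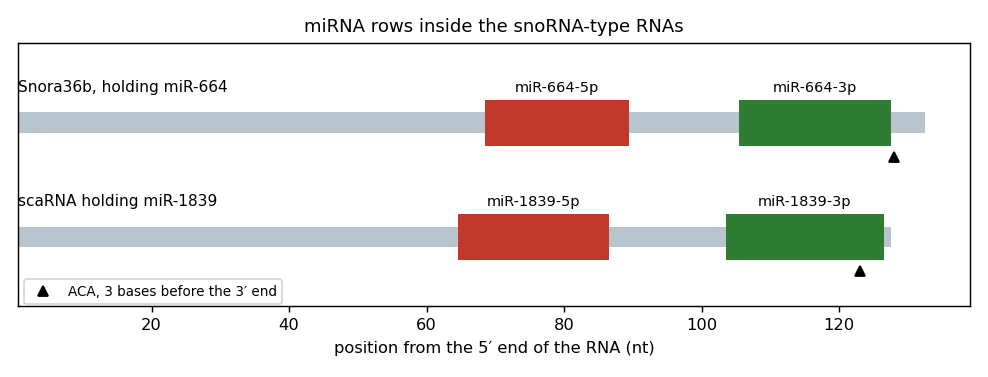
Position of the miRNA rows (boxes, red for 5p and green for 3p) along Snora36b and the scaRNA that holds miR-1839 (grey bars), in nucleotides from the 5′ end; triangles mark an ACA 3 bases before the 3′ end. In both RNAs the arms fill the 3′ hairpin, from base 69 of Snora36b and base 65 of the scaRNA.

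The libraries held 2318205 to 2739366 counts in miRNA rows in Dicer1-ifKO and 2724752 to 3179363 in WT. Levels are CPM, the count in a row scaled to a fixed total of the summed feature counts after TMM scaling. Features that overlap share their reads, so these totals exceed the reads. The span of Dicer1, the targeted gene, stood at 0.892, 0.602 and 0.746 CPM in Dicer1-ifKO and 0.920, 0.690 and 1.01 CPM in WT, and it does not resolve the floxed part, so it checks no label. Neuronal miR-124-3p was present in all libraries, with 97.6 to 136 CPM at its 3 loci in Dicer1-ifKO and 101 to 138.3 CPM in WT. Differences were tested over 6539 features (edgeR quasi-likelihood test, Benjamini-Hochberg adjusted p under 0.05), and log2 changes are Dicer1-ifKO over WT.

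Of the members, 6 of 7 passed the filter on low counts, and the remaining row, miR-320-5p, was at 0. miR-484 and miR-1839-3p fell in Dicer1-ifKO hippocampus, and miR-320-3p, miR-1839-5p and both miR-664 arms did not pass the test. That is 2 of 6 lower and 0 higher, while 0.795% of all tested features and 6.59% of the 546 tested miRNA rows were called lower, and 0.0153% of all features and 0 miRNA rows higher. At an unadjusted p under 0.05 the members' count was 4 lower, against 6.47% of all features and 31.1% of miRNA rows. The groups did not overlap in 4 members, all lower in Dicer1-ifKO, where 9.27% of all features and 33.9% of miRNA rows were lower without overlap and 3.73% and 2.01% higher. All 6 log2 changes lay below 0, with a median of -0.42. Over all tested miRNA rows 75.5% lay below 0 and the median was -0.24, and over all tested features the median was -0.05. Together the 7 rows took 0.145%, 0.156% and 0.149% of the miRNA counts in Dicer1-ifKO replicates 1, 2 and 3, and 0.190%, 0.179% and 0.174% in WT replicates 1, 2 and 3.

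**Figure D2:**
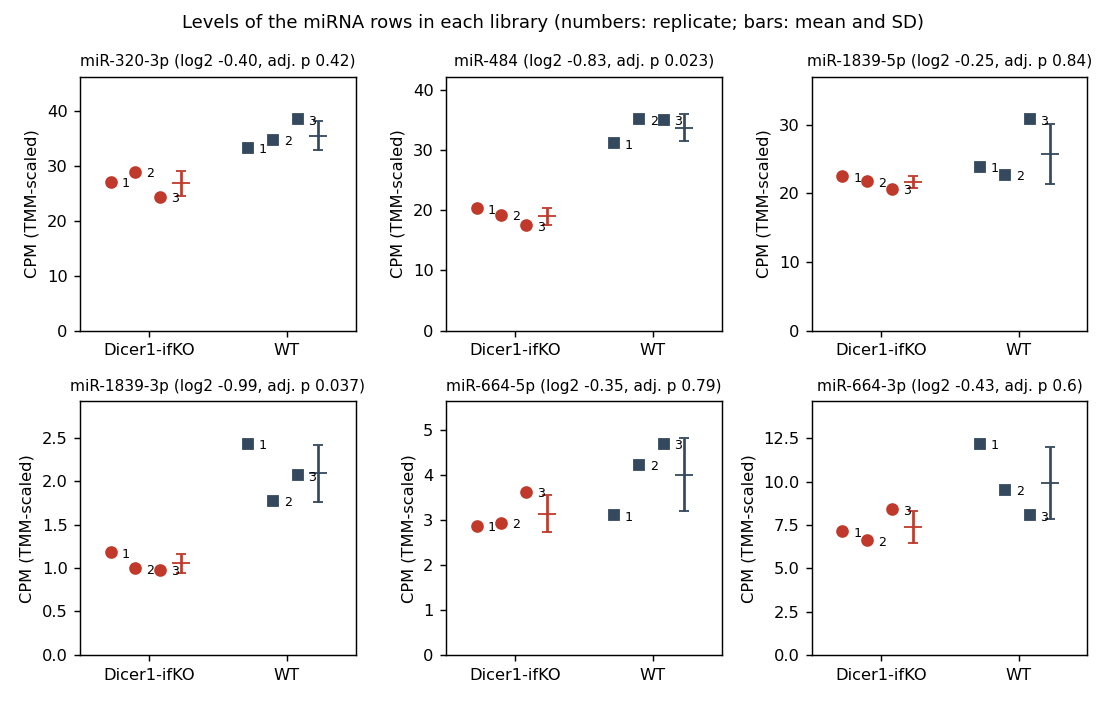
CPM of each tested row in each library (red circles, Dicer1-ifKO; dark squares, WT; numbers give the replicate), with mean and SD of 3 libraries beside the points. Relative to their level, miR-484 and miR-1839-3p show the widest gap, with at most 20.3 and 1.18 CPM in Dicer1-ifKO against at least 31.1 and 1.78 CPM in WT.

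Among the capped hairpins, miR-484 had 20.3, 19.2 and 17.5 CPM in Dicer1-ifKO replicates 1, 2 and 3, against 31.1, 35.1 and 34.95 CPM in WT replicates 1, 2 and 3. Every Dicer1-ifKO library lay below every WT library. The means were 19.0 ± 1.40 CPM in Dicer1-ifKO and 33.7 ± 2.28 CPM in WT (SD, n = 3 each), a ratio of 0.564 and a log2 change of -0.83 ± 0.15 (SE; edgeR adjusted p = 0.023). Among the 546 tested miRNA rows, 57 had a larger fall. Of 91 other tested rows with a GC content within 5 percentage points of miR-484, 11 had a larger fall, and the median of the 91 was -0.44. Left out in turn, only WT replicate 1 could be spared (edgeR adjusted p = 0.0022 without it). The edgeR adjusted p was 0.064, 0.34 and 0.20 without Dicer1-ifKO replicates 1, 2 and 3, and 0.14 and 0.12 without WT replicates 2 and 3, while the log2 change stayed between -0.89 and -0.76.

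miR-320-3p, the product of the capped hairpin beside Polr3d, had 27.1, 28.9 and 24.4 CPM in Dicer1-ifKO and 33.2, 34.7 and 38.4 CPM in WT. The groups did not overlap here either, but the change was smaller than that of miR-484. Its log2 change of -0.40 ± 0.15 (SE, 95% confidence interval -0.73 to -0.07, n = 3 each) did not pass edgeR's test over all features (adjusted p = 0.42). The other arm, miR-320-5p, had 0 counts in each of the 6 libraries, against 8874 counts of the 3p arm over all of them. A count of 0 allows a 5p share of up to 0.0338% of the hairpin's counts, for counting error only. The library protocol joins an adapter to a 5′ phosphate, so a 5p RNA that keeps a cap would not be counted. The miR-484 row, on the 5′ arm of the other capped hairpin, held 7501 counts over the 6 libraries. Whether a cap has a part in the count of 0 was not tested.

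Both capped miRNAs come from single rows, so their raw counts can be set against each other with no scaling between libraries. The ratio of miR-484 to miR-320-3p counts was 0.748, 0.664 and 0.718 in Dicer1-ifKO replicates 1, 2 and 3, and 0.935, 1.01 and 0.909 in WT replicates 1, 2 and 3. It was lower in every Dicer1-ifKO library than in any WT library. The difference of log2 ratios was -0.42, with a two-sided exact permutation p of 0.1, the smallest that 3 against 3 libraries can give, so this design cannot pass 0.05. This ratio was chosen after the values were seen. Leaving out each library in turn moved it between -0.46 and -0.38.

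**Figure D3:**
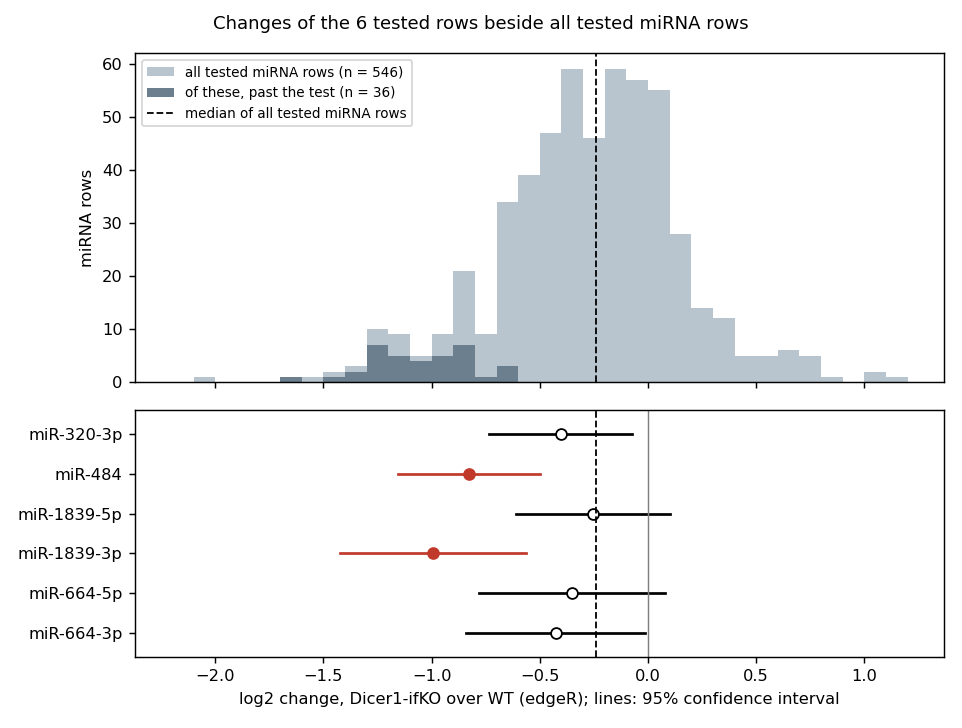
Top, number of tested miRNA rows by log2 change (light grey, all 546; dark grey, the 36 past the test); bottom, log2 change of the 6 tested rows with 95% confidence intervals (filled red, past the test; open, not past it). The dashed line is the median of all tested miRNA rows, -0.24; the intervals of miR-484 and miR-1839-3p end left of it, and the other 4 intervals contain it.

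Of the snoRNA-type hairpins, miR-1839 gave unequal arms. miR-1839-3p, the less abundant arm, had 1.18, 0.997 and 0.981 CPM in Dicer1-ifKO replicates 1, 2 and 3, and 2.43, 1.78 and 2.07 CPM in WT replicates 1, 2 and 3. These values rest on 49, 53 and 46 counts in Dicer1-ifKO and 119, 85 and 96 counts in WT. The groups did not overlap, and the log2 change was -0.99 ± 0.20 (SE, n = 3 each; edgeR adjusted p = 0.037), a ratio of 0.503. Among the tested miRNA rows, 32 had a larger fall. This call, too, was kept only without WT replicate 1 (edgeR adjusted p = 0.025). Without Dicer1-ifKO replicates 1, 2 and 3 the edgeR adjusted p was 0.087, 0.40 and 0.26, and without WT replicates 2 and 3 it was 0.0502 and 0.13, with log2 changes between -1.08 and -0.88.

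miR-1839-5p, the main arm, had 22.5, 21.8 and 20.7 CPM in Dicer1-ifKO and 23.8, 22.7 and 30.7 CPM in WT. The groups stood just apart, with Dicer1-ifKO replicate 1 close to WT replicate 2. Its log2 change was -0.25 ± 0.16 (SE, 95% confidence interval -0.61 to 0.10, n = 3 each; edgeR adjusted p = 0.84). Of 163 rows of like GC content, 68 had a larger fall. Without WT replicate 3, its highest library, the log2 change was -0.06.

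The balance of the arms needs no scaling between libraries, since both arms come from one hairpin. With 0.5 added to each count, the 3p count of miR-1839 was 0.0531, 0.0462 and 0.0480 of the 5p count in Dicer1-ifKO replicates 1, 2 and 3, and 0.102, 0.0788 and 0.0676 in WT replicates 1, 2 and 3. All 3 Dicer1-ifKO libraries lay below all 3 WT libraries. On the log2 scale the balance was -4.35 ± 0.10 in Dicer1-ifKO and -3.61 ± 0.30 in WT (SD, n = 3 each), a difference of -0.74 (two-sided exact permutation p = 0.1, the smallest possible). Among hairpins with a mean of at least 10 counts in each arm, 27 (18.5%) had groups that did not overlap with the lower balance in Dicer1-ifKO and 17 (11.6%) with the higher one. A larger difference in size than that of miR-1839 was seen in 15 of them (10.3%), and the median over all of them was -0.08. Some of these hairpins mirror each other, such as miR-126a (-0.26) and miR-126b (0.26), and miR-9 enters at several loci. The shares are therefore not over independent hairpins. The difference of miR-1839 lay between -0.87 and -0.57 when each library was left out in turn.

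**Figure D4:**
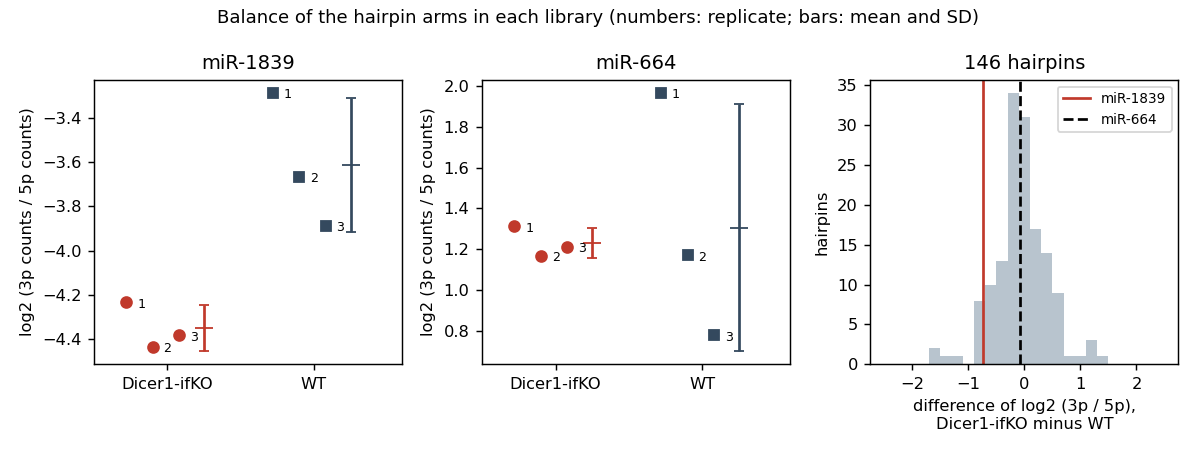
Left and middle, log2 ratio of 3p to 5p counts (with 0.5 added to each) for miR-1839 and miR-664 in each library (red circles, Dicer1-ifKO; dark squares, WT; numbers give the replicate; bars are mean and SD of 3 libraries); right, the difference between the groups in all hairpins with enough counts in both arms. For miR-1839 all Dicer1-ifKO values lie below all WT values, while for miR-664 the WT values spread from 0.78 to 1.97 around the Dicer1-ifKO values.

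miR-664-3p, the main arm of the Snora36b hairpin, had 7.14, 6.60 and 8.40 CPM in Dicer1-ifKO and 12.2, 9.52 and 8.06 CPM in WT. The groups overlapped, since Dicer1-ifKO replicate 3 lay above WT replicate 3. Its log2 change was -0.43 ± 0.19 (SE, 95% confidence interval -0.84 to -0.01, n = 3 each; edgeR adjusted p = 0.60). It was -0.26 without WT replicate 1, the highest library, which moved the value by more than 1.5 times. miR-664-5p had 2.87, 2.93 and 3.62 CPM in Dicer1-ifKO and 3.11, 4.23 and 4.70 CPM in WT. Here WT replicate 1 was the lowest WT library and lay below Dicer1-ifKO replicate 3, so these groups overlapped as well. Its log2 change was -0.35 ± 0.20 (SE, 95% confidence interval -0.78 to 0.08, n = 3 each; edgeR adjusted p = 0.79), and -0.18 without WT replicate 3.

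The arms of miR-664 varied against each other in WT. The 3p count was 2.48, 2.25 and 2.31 times the 5p count in Dicer1-ifKO replicates 1, 2 and 3, and 3.91, 2.25 and 1.71 times in WT replicates 1, 2 and 3. The log2 balance was 1.23 ± 0.07 in Dicer1-ifKO and 1.30 ± 0.61 in WT (SD, n = 3 each), a difference of -0.08 (two-sided exact permutation p = 0.9). Of the hairpins compared, 11 (7.53%) had a larger SD in WT, where the median SD was 0.27. Without WT replicate 1 the difference turned to 0.26.

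The host RNAs were seen almost only through these miRNAs. The Snora36b row held 3529 counts over the 6 libraries, of which 98.7% lay in the miR-664 rows, and the scaRNA row held 7193, of which 99.9% lay in the miR-1839 rows. Outside the arms, single libraries had 2 to 12 counts in Snora36b and 0 to 4 in the scaRNA. The Rab3gap2 span, which encloses Snora36b, had 9 to 20 counts besides the 97.6% that lay in miR-664. No host row had at least 10 such counts in each library, so no ratio of miRNA to host was tested, and the host rows' own log2 changes (-0.41 for Snora36b, -0.41 for Rab3gap2 and -0.30 for the scaRNA) count the same reads again. Among 74 H/ACA snoRNA places with at least 60 counts, 4 had over 50% of them in miRNA rows.

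Of 73 other tested H/ACA snoRNA rows, 5 overlap miRNA rows, and 3 of the places so covered (SNORA58.1, SNORA19.6 and SNORA19.7) have nearly all their counts there. Of the remaining 68, 0 fell and 0 rose (edgeR adjusted p), with 1 lower at an unadjusted p under 0.05 and a median log2 change of -0.07. Over all tested features 0.795% were called lower and 0.0153% higher, and 6.47% were lower at the unadjusted limit. The summed level of the 68 rows was 88.4 to 97.4 CPM in Dicer1-ifKO and 89.1 to 125 CPM in WT. When these 68 rows set the scaling, a choice added after the data were seen, the log2 changes were -0.81 for miR-484 and -0.95 for miR-1839-3p. The call of miR-484 was then lost (edgeR adjusted p = 0.067) and that of miR-1839-3p kept (edgeR adjusted p = 0.023).

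Mirtrons, hairpins released by splicing that also skip Drosha and need Dicer, form another class of this kind. A chosen list of 10 mirtron rows, which does not cover the whole class, was set beside the members. Of its 7 tested rows 1 fell and 0 rose, where 6.59% of all tested miRNA rows were called lower. Below 0 lay 6 of the 7, and miR-1224-3p lay above it (log2 0.60, edgeR adjusted p = 0.69). The median log2 change of the 7 was -0.55, against -0.42 for the members and -0.24 for all tested miRNA rows. The row that fell was miR-877-5p, at 2.12, 2.26 and 2.26 CPM in Dicer1-ifKO and 3.31, 5.57 and 6.01 CPM in WT (log2 -1.16 ± 0.22 SE; edgeR adjusted p = 0.028). Besides it, miR-1981-5p (log2 -0.15) and miR-877-3p (log2 -0.69) were the most abundant and did not pass. For miR-451a the second cut is made by Ago2 and not Dicer. It had 9.89, 9.67 and 8.31 CPM in Dicer1-ifKO and 12.1, 8.39 and 10.3 CPM in WT, with a log2 change of -0.15 ± 0.18 (SE; edgeR adjusted p = 0.94).

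The genes of the pathway were covered by few fragments. Of 14 spans, which included Drosha, Dgcr8, Dicer1, the Exportin genes, Phax, the cap-binding genes Ncbp1 and Ncbp2 and those of the Argonautes, 3 were tested (Dgcr8, Dicer1 and Eif2c4, the older symbol of Ago4), and 0 fell or rose by edgeR's test, with 0 lower at an unadjusted p under 0.05. Their log2 changes were -0.33, -0.24 and -0.01. Of the 4 H/ACA protein genes Dkc1, Nhp2, Nop10 and Gar1, 0 passed the filter on low counts.

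The miRNAs whose levels most resembled those of the members were sought by Pearson's correlation of log2 CPM over the 6 libraries, among 390 or 391 miRNA rows with a mean of at least 50 counts. With so many rows and so few libraries, high values occur easily, and all points share depth and scaling, so these are descriptions. For miR-484 they were miR-1224-5p, itself listed as a mirtron (r = 0.997, log2 -0.55), miR-149-5p (r = 0.993, log2 -0.59) and miR-324-3p (r = 0.991, log2 -0.90, edgeR adjusted p = 0.033). For miR-320-3p they were miR-431-3p (r = 0.977), miR-676-5p (r = 0.971) and miR-666-5p (r = 0.960). miR-1839-3p was closest to miR-1843a-3p (r = 0.983), miR-1198-5p (r = 0.978) and miR-652-3p (r = 0.976). miR-1839-5p was closest to miR-30a-3p (r = 0.971) and to miR-337-3p and miR-3544-5p (r = 0.964 each), which have the same values in every library and count as 1. miR-664-3p was closest to miR-129-1-3p (r = 0.985), miR-129-2-3p and miR-129b-5p (r = 0.936 each, at nearly equal levels), and miR-664-5p to miR-7015-3p (r = 0.981), miR-758-3p (r = 0.976) and miR-744-5p (r = 0.946).

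Of the miRNA rows typical of cell types, 3 of 30 neuronal rows fell, miR-212-3p and miR-129-5p at both loci. The miR-129-5p rows, at 4207 and 4186 counts, count as 1. Rows of 1 mature miRNA at several loci, such as miR-9-5p and miR-124-3p, were entered separately in these counts and in the sums. In the other 6 lists 0 rows passed edgeR's test. At an unadjusted edgeR p under 0.05, 12 neuronal, 3 astrocyte, 1 choroid plexus and 0 microglial, vessel, oligodendrocyte and erythrocyte rows were lower. Over all tested miRNA rows this share was 31.1%. At that limit miR-142-3p and miR-144-5p, on 103 and 95 counts over the 6 libraries, were higher. The summed neuronal levels overlapped, at 2821 to 3537 CPM in Dicer1-ifKO and 3427 to 4348 CPM in WT. Among the abundant neuronal rows, the log2 change was -0.43 and -0.52 at the loci of miR-128-3p, -0.01 to -0.04 at those of miR-124-3p and 0.00 to 0.02 at those of miR-9-5p. For microglia and leukocytes, 4 of 10 rows were tested, with miR-146a-3p and miR-155-3p at 0 counts. The sums were 200.2 to 226 CPM in Dicer1-ifKO and 162 to 199 CPM in WT. Most of this came from miR-150-5p (log2 0.24, edgeR adjusted p = 0.81). The next most abundant, miR-142-5p (log2 0.18) and miR-146a-5p (log2 0.01), overlapped between the groups. The choroid plexus sums, over 5 of 10 rows and nearly all from miR-204-5p, were 221 to 240 CPM in Dicer1-ifKO and 322 to 348 CPM in WT, with miR-429-5p and miR-211-3p at 0 counts. The astrocyte sums, nearly all from miR-26a-5p and miR-29a-3p, were 6315 to 7113 CPM in Dicer1-ifKO and 7829 to 9577 CPM in WT. Of these rows miR-26a-5p, entered at 2 loci, was lower without overlap (log2 -0.42 at each, edgeR adjusted p = 0.22 and 0.24). The groups overlapped for miR-29a-3p (log2 -0.11) and miR-29c-3p (log2 0.05). The sums of these last lists did not overlap between the groups. They were higher in Dicer1-ifKO for microglia and leukocytes, though only just, at 200.2 CPM or more against 198.7 CPM or less in WT. For choroid plexus and astrocytes they were lower. As for neurons, sums overlapped between Dicer1-ifKO and WT for vessels (459 to 622 and 362 to 595 CPM), oligodendrocytes (258 to 350 and 218 to 340 CPM) and erythrocytes (185 to 226 and 207 to 234 CPM). The part of all these cell types in the falls of miR-484 and miR-1839-3p was not tested.

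**Figure D5:**
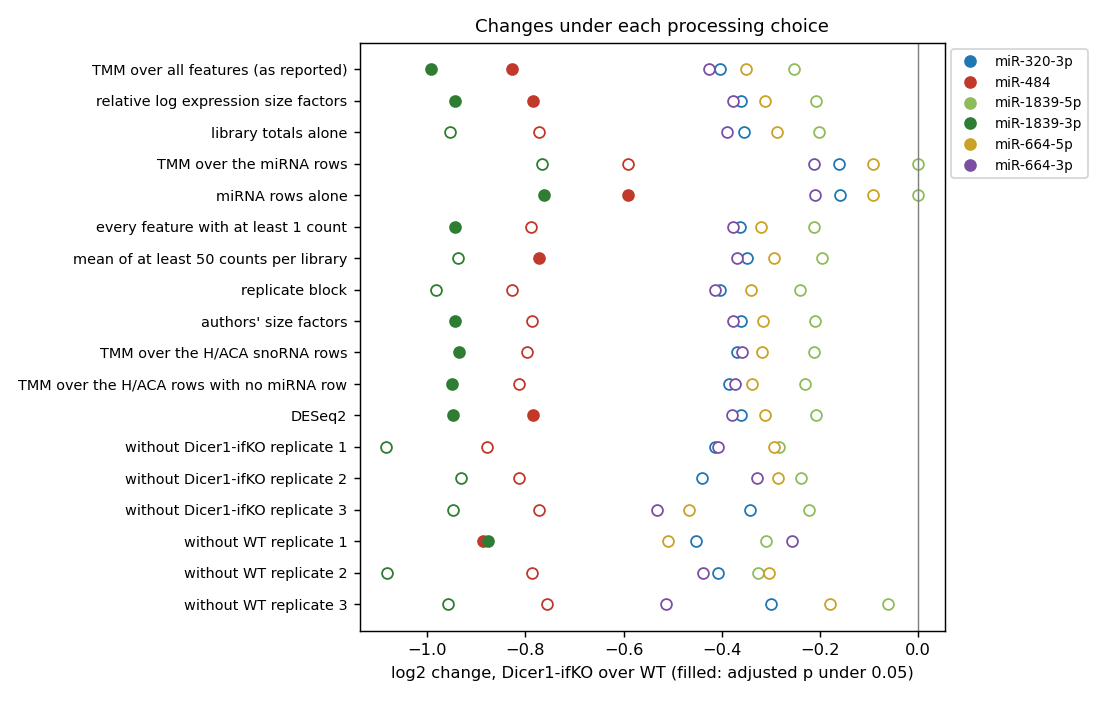
Log2 change of each tested row (colours) under the reported processing, 11 other choices and with each library left out; filled points have an adjusted p under 0.05. All 6 rows stay at or below 0 throughout, while the calls of miR-484 and miR-1839-3p come and go, and scaling by the miRNA rows moves all 6 towards 0.

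The calls depended on how the libraries were scaled. With TMM over the miRNA rows, the log2 change was -0.59 for miR-484 and -0.77 for miR-1839-3p (edgeR adjusted p = 0.29 and 0.34), while miR-1839-5p stood at -0.00055. Fitted among the miRNA rows alone, both were called at nearly the same log2 changes (edgeR adjusted p = 0.011 for miR-484 and 0.042 for miR-1839-3p). Calls over all features went from 53 as reported to 12 with TMM over the miRNA rows. The fit of the miRNA rows alone called 47 of 550.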

How the data were processed

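The authors deposited 1 table per library with raw read counts per feature, whole numbers with no scaling, and a normalized signal that equals the raw counts times 1 constant per library, used here only as an alternative scaling. Libraries followed the TruSeq small RNA protocol, per the labels' protocols. The submitters' processing notes list, with no roles, BWA, DESeq2, CASAVA 1.8.2 and SAMtools 0.1.18, and the build GRCm38. For the tool that counted reads and its strand setting, nothing is stated in the labels or headers. The series' design text gives 12 mice per genotype, while 3 pools of 3 make 9.

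Rows of 1 gene with identical counts in all libraries were counted once (13611 removed). Testing used edgeR 4.0.16 in R 4.3.3 (filterByExpr with a minimum count of 10, TMM, robust quasi-likelihood fit without covariates) over 6539 features, of which only the members and listed rows are printed. The standard error comes from the F statistic. On simulated data over 6539 rows, 99% of 2-fold and 100% of 4-fold changes were recovered, with 8 unchanged rows called. The simulation gave every row the same fixed spread between libraries and changed only rows with a mean of at least 50 counts. Its recovery therefore does not measure that in the real libraries. Arm ratios used 0.5 added counts and two-sided exact permutation. Alternatives were other scalings, count filters, DESeq2 1.42.0, the replicate block and leaving out each library; 3 scalings were added after the data were seen. Members, lists and the rule for named miRNAs (all members, overlapping rows, up to 3 abundant rows of each list, the 3 most similar miRNAs of each member) were chosen with earlier results of these data known. Libraries of a genotype differed by more than counting noise (chi-square per degree of freedom 22.1 to 66.9). Intervals and limits cover counting error or the spread of pools.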

Additional observations from a re-analysis of the deposited data

How the results depend on the processing

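All 6 tested rows lay below 0 under each of the 17 alternatives to the reported fit. The number called lower, 2 as reported, was 2 with relative log expression size factors, with DESeq2 and among the miRNA rows alone. It was 1 with every feature of at least 1 count, with a mean of at least 50 counts, with the authors' size factors and with TMM over the H/ACA snoRNA rows, with or without those that overlap miRNA rows. It was 0 with library totals alone (edgeR adjusted p = 0.062 for miR-484 and 0.17 for miR-1839-3p), with TMM over the miRNA rows and with the replicate number as a block (edgeR adjusted p = 0.14 for each). Leaving out each library in turn gave 0 to 2. Calls over all features, in either direction, also changed with the setting. They numbered 53 of 6539 as reported, 47 with relative log expression size factors and 63 with DESeq2. They were 54 of 51833 with every feature and 41 of 2365 with the mean filter. The authors' factors gave 42 and the H/ACA scalings 52 and 53. Library totals alone gave 23, TMM over the miRNA rows 12 and the replicate block 6. Among the miRNA rows alone, 47 of 550 were called. TMM over the miRNA rows moved the median of the other features from -0.03 to 0.20. The median log2 change of the members, -0.42, was -0.19 with TMM over the miRNA rows and -0.19 among the miRNA rows alone, and -0.50 to -0.38 with a library left out. The cause of these shifts was not tested. Over all tested features the deviations of libraries with equal replicate numbers correlated at -0.18, 0.08 and -0.16. Over the tested miRNA rows they correlated at -0.05, 0.26 and -0.26. With 3 libraries per group these values cannot decide whether equal numbers pair the libraries. The arm difference of miR-1839 ran from -0.87 to -0.57 and that of miR-664 from -0.34 to 0.26 with a library left out, turning to 0.26 without WT replicate 1. The ratio of members to host RNAs was not run, since too few host counts lay outside the members. Called falls of miR-1839-3p rest on few counts, which limits their precision.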
